A study of Homo sapiens with 9 samples.

Results

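Cells build cholesterol and fatty acids from the same small precursor, acetyl-CoA, along separate enzyme chains. The 38 genes described here are SREBP-linked genes of both chains, listed by name with earlier results of these data known. Shares of them that were called are therefore descriptive. All 38 were found by symbol among the 60230 genes in the tables. They comprise 4 regulators (SREBF1, SREBF2, INSIG1 and INSIG2), a sterol arm of 18 genes and a fatty acid arm of 16 genes. Poly(A) RNA was sequenced from 3 groups of 3 libraries, all of NCI-H358, a human lung carcinoma line, and the drug was sotorasib, a small-molecule inhibitor. The parental cells were sotorasib-sensitive and untreated. The resistant cells are 1 derivative line, NCI-H358-R, made by keeping parental cells for months in 250 nM sotorasib until they grew readily. They were sequenced without drug, after a time off drug that the labels do not give, and under 250 nM sotorasib, 4 days after dosing. All groups were grown in RPMI-1640 with fetal bovine serum, which carries lipids of its own. The series calls the 3 libraries of a group biological replicates, with nothing said of how the cultures were kept apart, so the p-values reflect only how these libraries vary, which may be partly technical. With 1 derivative line, resistance and the descent of that line cannot be told apart.

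SREBF1 and SREBF2 encode SREBP-1 and SREBP-2, membrane-bound transcription factors that are released by proteolysis when membrane sterols run low. SREBP-2 is best known for driving cholesterol synthesis genes and SREBP-1 for driving fatty acid synthesis genes, while the INSIG proteins hold the unprocessed precursors in the endoplasmic reticulum. SREBP proteins are known to bind sterol regulatory elements in promoters, often beside a CCAAT box bound by the factor NF-Y.

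Promoter sequences from RefSeq (GRCh38.p14) were on hand for 35 of the 38 genes, 51 promoters in all, and the 250 bases before each start were searched on both strands. The NF-Y letters CCAAT were present in 27 of the 35 genes, 14 of 16 in the sterol arm, 11 of 15 in the fatty acid arm and 2 of 4 regulators. Over all 27305 genes searched the same way, 37% held them. A gene with more promoters has more places for a match. Among genes with 1 promoter, 18 of 24 members held the letters, against 33.4% of all such genes. The sterol regulatory element letters TCACNCCAC were present in 2 of the 35 (SREBF2 and ACSL1), against 1.09% of all genes, and the E-box letters CACGTG in 3 (INSIG1, SC5D and ELOVL5), against 7.73%. A match describes letters, not binding. The stretches below are shown because these genes carry the main patterns of the text. SREBF2 is the regulator with both kinds of match. HMGCS1, MSMO1 and LSS are sterol genes that moved in different directions. SCD, SCD5 and FADS3 are desaturases that moved in opposite directions with drug. Capitals mark CCAAT or its reverse complement ATTGG and, in SREBF2, also TCACNCCAC (all read 5′ to 3′ on the gene's strand).
SREBF2, chr22:41832949-41833028, plus strand: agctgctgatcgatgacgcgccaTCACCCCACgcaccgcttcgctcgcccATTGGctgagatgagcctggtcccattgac
HMGCS1, chr5:43313526-43313605, minus strand: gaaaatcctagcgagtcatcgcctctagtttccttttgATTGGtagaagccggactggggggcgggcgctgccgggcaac
MSMO1, chr4:165327524-165327603, plus strand: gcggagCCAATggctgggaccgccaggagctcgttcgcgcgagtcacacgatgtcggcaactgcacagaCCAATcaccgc
LSS, chr21:46228883-46228962, minus strand: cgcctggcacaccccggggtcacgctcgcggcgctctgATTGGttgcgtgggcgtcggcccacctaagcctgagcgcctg
SCD, chr10:100346988-100347067, plus strand: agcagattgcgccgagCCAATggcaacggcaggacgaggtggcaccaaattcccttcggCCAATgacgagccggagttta
SCD5, chr4:82798890-82798969, minus strand: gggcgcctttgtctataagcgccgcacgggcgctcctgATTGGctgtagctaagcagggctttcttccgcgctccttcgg
FADS3, chr11:61891641-61891720, minus strand: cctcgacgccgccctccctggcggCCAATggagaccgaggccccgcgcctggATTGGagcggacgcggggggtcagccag
Genes of either direction held the box: among the genes with a promoter sequence, it was present in 8 of the 10 that rose with drug and in 16 of the 22 that fell.

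Libraries held 25698500 to 34727826 estimated counts, and all 38 genes passed the filter on low counts, among 17307 genes tested. Values per library are CPM, counts rescaled to a common library total, adjusted by TMM, a method that sets the bulk of genes level between libraries, and they compare libraries for 1 gene. TPM values are scaled for transcript length too and are used where levels of different genes are set side by side. Fold changes are differences of log2 CPM, given ± SE, from edgeR's quasi-likelihood test with Benjamini-Hochberg adjustment over all genes tested, and a gene was called at an adjusted p under 0.05. Groups of 3 libraries that do not overlap were common: 61.9% of all genes tested for off drug against parental, 67.6% for on against off drug and 69% for on drug against parental. The on-drug libraries stood apart in composition, with 24191 to 24360 genes detected against 22081 to 22957 in the others. The summed CPM of 5 epithelial markers was 5794 to 7020 in parental, 5818 to 6028 off drug and 2958 to 3610 on drug, where EPCAM, KRT8, KRT18 and KRT19 fell against off drug and CDH1 rose. Off drug against parental, EPCAM fell by 1.00 ± 0.083 and KRT18 rose by 0.24 ± 0.090 within a nearly level sum. Leukocyte, adipocyte and hepatocyte marker sums stayed under 5 CPM in all libraries, where the highest single marker was CD14 in parental cells, and endothelial sums lay between 1.504 and 6.195 CPM, with PECAM1 at 0.803 ± 0.0336 CPM in parental and 5.02 ± 0.363 off drug (SD, n = 3). The fibroblast sum, mostly COL1A1, was 25.2 to 28.9 CPM in parental, 15.1 to 16.9 off drug and 43.2 to 49.97 on drug, and in it PDGFRB was 0.0124 ± 0.0215 CPM in parental and 2.02 ± 0.453 off drug. Whether any of these shifts plays a part in the results below was not tested, and in bulk RNA fewer cells of a type and less RNA per cell cannot be told apart.

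The comparison of resistant cells off drug with parental cells asks what differs in the resistant line without the inhibitor. SREBF1 and the main fatty acid enzymes FASN and SCD were lower off drug, while the other genes of both arms moved both ways. Of the 38 genes, 9 rose and 15 fell, a called share of 63.2% beside 55% of all genes tested (28.4% higher and 26.6% lower). In the sterol arm 6 rose, 7 fell and 5 did not pass, with a median log2 fold change of -0.15. In the fatty acid arm 3 rose, 5 fell and 8 did not pass, with a median of -0.067, against a median of 0.00082 over all genes tested. At least 2-fold falls were seen in 5 members (SREBF1, MVK, TM7SF2, SCD5 and ACSL1), beside 9.72% of all genes, and no member rose 2-fold, beside 7.49% of all genes. The sterol count rested on small changes: it was 8 in place of 13 without off-drug replicate 1, and its 6 rises were 3 without parental replicate 1 or 2 or off-drug replicate 1 or 3.

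The comparison of the resistant line with and without drug asks how the line differs between 4 days after dosing and a time off drug of unstated length. Most genes of both arms were lower with drug, and a small group (LSS, TM7SF2, SCD5, FADS3 and ACSL1) was at least 2-fold higher. Of the 38 genes, 10 rose and 25 fell, 92.1% called beside 62.6% of all genes tested (31.4% higher and 31.2% lower). The sterol arm had 5 rises and 10 falls among 18, with a median log2 fold change of -0.39, and the fatty acid arm 5 rises and 11 falls among 16, with a median of -0.48, while the median of all genes was 0.016. Rises of at least 2-fold were seen in 5 members, beside 13.5% of all genes, and falls in 2 (MSMO1 and ACSS2), beside 11.3%. Scaling by library size alone moved the median of all genes up by 0.26 and left 7 falls in the fatty acid arm in place of 11. Leaving out on-drug replicate 1 reduced the rises in that arm from 5 to 3.

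The comparison of resistant cells on drug with parental cells spans both differences. Of the 38 genes, 5 rose (LSS, ACLY, ACACB, SCD5 and FADS3) and 24 fell, 76.3% called beside 66.2% of all genes tested (33.4% higher and 32.9% lower). The sterol arm had 1 rise, 11 falls and a median log2 fold change of -0.31 on CPM. Its rises numbered 3 without parental replicate 3 and 5 with library size alone or on log2(TPM + 1), where its falls numbered 5. Its median on log2(TPM + 1) was 0.051, beside a median of 0.27 over all genes on that scale, so that it lay -0.22 from all genes there and -0.32 with TMM. The fatty acid arm had 4 rises, 9 falls and a median of -0.22, beside 0.016 over all genes. With library size alone these medians were 0.0032 and 0.24. The arm lay -0.24 from all genes under both scalings, a distance that a change of scaling factors leaves nearly unchanged by construction. On CPM, falls of at least 2-fold were seen in 8 members (SREBF1, INSIG2, MSMO1, STARD4, ACSS2, FASN, SCD and ELOVL6), beside 13.9% of all genes, and a rise of that size in FADS3 alone, beside 13.4%. By mean TPM, SREBF1, MSMO1 and SCD also fell at least 2-fold, and INSIG2, STARD4, ACSS2, FASN and ELOVL6 by less. FASN went from 290 TPM in parental to 174 on drug, and ELOVL6 from 20.3 to 14.1. LSS, ACACB and SCD5, like FADS3, rose at least 2-fold by mean TPM. The 3 comparisons share libraries pairwise, so their values are set side by side below and not counted against each other.

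The scaling behind these counts mattered most for the on-drug libraries. Against TMM, library size alone shifted the median log2 fold change of all genes by 0.26 for on against off drug and by 0.22 for on drug against parental, and log2(TPM + 1) shifted the 3 comparisons by 0.13, 0.14 and 0.26. The share of called genes that were higher was 50.1% for on against off drug and 50.4% for on drug against parental with TMM, and 68.5% and 64.3% with library size alone. On log2(TPM + 1) it was 64.6%, 64.0% and 69.7% for off drug against parental, on against off drug, and on drug against parental, where TMM gave 51.6% for the comparison off drug. Measured from the median of all genes under each scaling, the sterol arm's median for on against off drug was -0.41 with TMM, -0.41 with library size and -0.36 on log2(TPM + 1), and the fatty acid arm's was -0.49, -0.49 and -0.33. TMM and library size differ only in factors that move all genes by nearly the same amount. Their near-equal distances follow from that and are no check of the scaling.

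**Figure D1:**
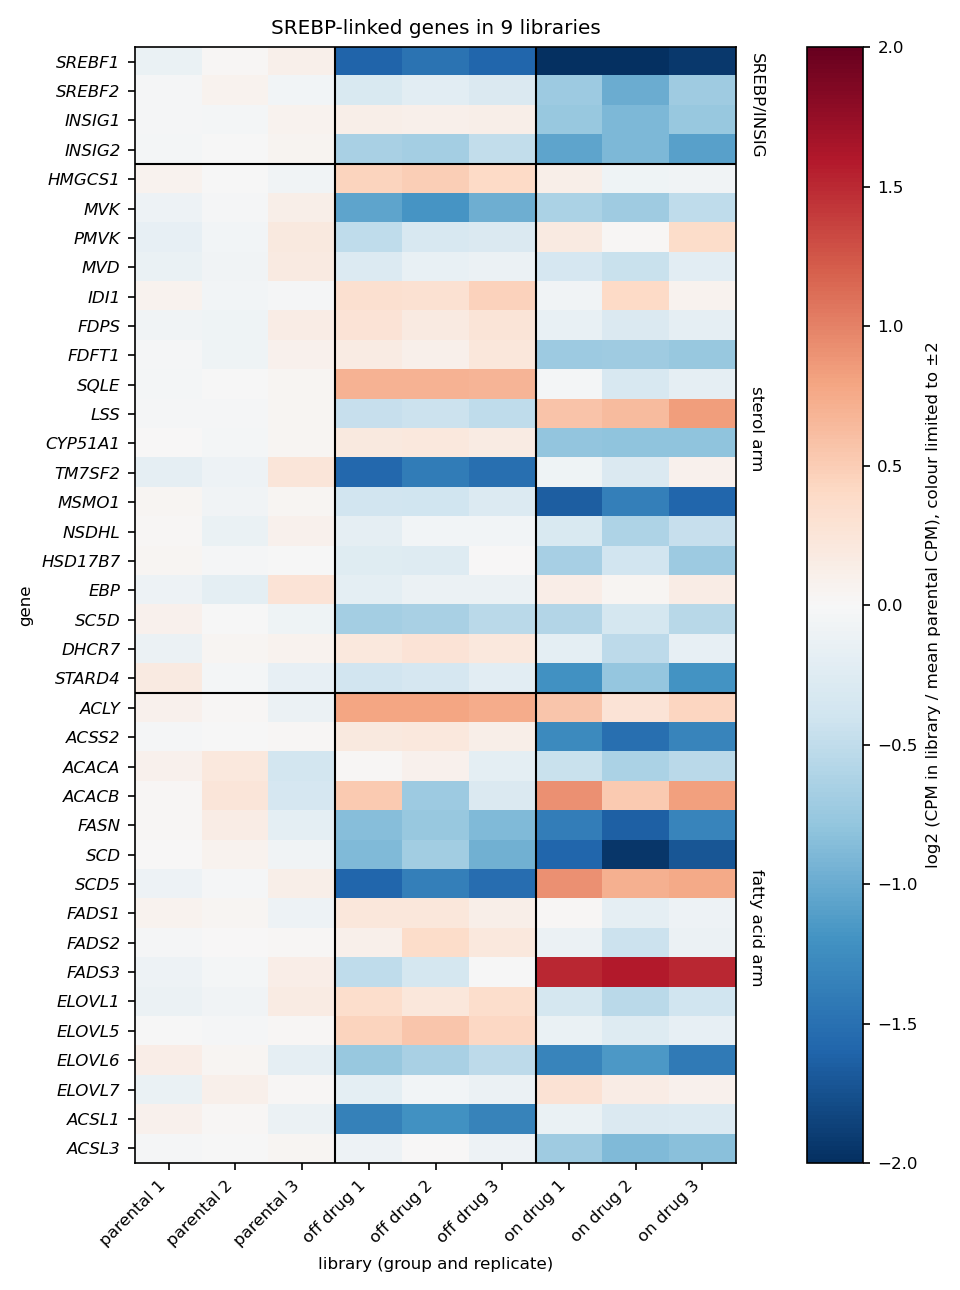
Level of each of the 38 genes (y axis) in each of the 9 libraries (x axis), as log2 of the TMM-scaled CPM over the mean parental CPM, with colours limited to 2 in either direction. SREBF1, FASN and SCD are below parental in all 6 resistant libraries, while SCD5, TM7SF2 and ACSL1 are lowest off drug and FADS3 is highest on drug.

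Among the regulators, SREBF1 (ENSG00000072310.18, chr17:17810399-17837002, minus strand, GRCh38) had the largest fall in the comparisons with parental cells. It measured 542, 600.2 and 637 CPM in the parental libraries, 195, 212 and 199 off drug and 143, 119 and 156 on drug. The 3 groups did not overlap, and every resistant library lay far below the lowest parental one. SREBF1 fell by 1.55 ± 0.10 on the log2 scale off drug (2.94-fold, edgeR adjusted p = 3.8e-09), by a further 0.54 ± 0.098 with drug (adjusted p = 0.00019), and by 2.09 ± 0.10 from parental to on drug (adjusted p = 5e-11). Its exons overlap those of RAI1 on the other strand, which held counts of up to 49% of those of SREBF1, and the sources used here do not give the strand setting of the counting.

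SREBF2 (ENSG00000198911.12, chr22:41833079-41907308, plus strand) measured 347, 374 and 343 CPM in the parental libraries, 288, 307 and 291 off drug and 213, 178 and 218 on drug. The groups again did not overlap, but the steps were smaller. SREBF2 fell by 0.26 ± 0.085 off drug (edgeR adjusted p = 0.016), a call lost without parental replicate 2 (-0.22, adjusted p = 0.07), off-drug replicate 1 (-0.24, adjusted p = 0.071) or off-drug replicate 3 (-0.25, adjusted p = 0.052). It fell by 0.54 ± 0.086 with drug (adjusted p = 4.7e-05) and by 0.81 ± 0.086 from parental to on drug (adjusted p = 5.6e-07). On log2(TPM + 1) the fall off drug was -0.10 and the fall with drug -0.27, neither of them called.

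INSIG1 (ENSG00000186480.13, chr7:155297776-155310235, plus strand), itself a classical SREBP target that holds the precursors back, measured 145, 143 and 155 CPM in the parental libraries, 159, 157 and 159.9 off drug and 86.9, 79.1 and 87 on drug. The off-drug libraries sat just above the parental ones, and all on-drug libraries were far below both. Off drug it was not called (log2 fold change 0.11 ± 0.074), and with drug it fell by 0.91 ± 0.075 (edgeR adjusted p = 2.8e-08). On log2(TPM + 1) INSIG1 was called higher off drug (0.23, limma adjusted p = 0.041). INSIG2, the second retention protein, measured 36.8, 37.8 and 39.4 CPM in the parental libraries, 24.4, 23.6 and 27 off drug and 18.3, 20.3 and 18 on drug. It fell by 0.60 ± 0.087 off drug (adjusted p = 2.4e-05) and by 0.41 ± 0.088 with drug (adjusted p = 0.00081), and the latter call was lost with library size alone (-0.15).

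**Figure D2:**
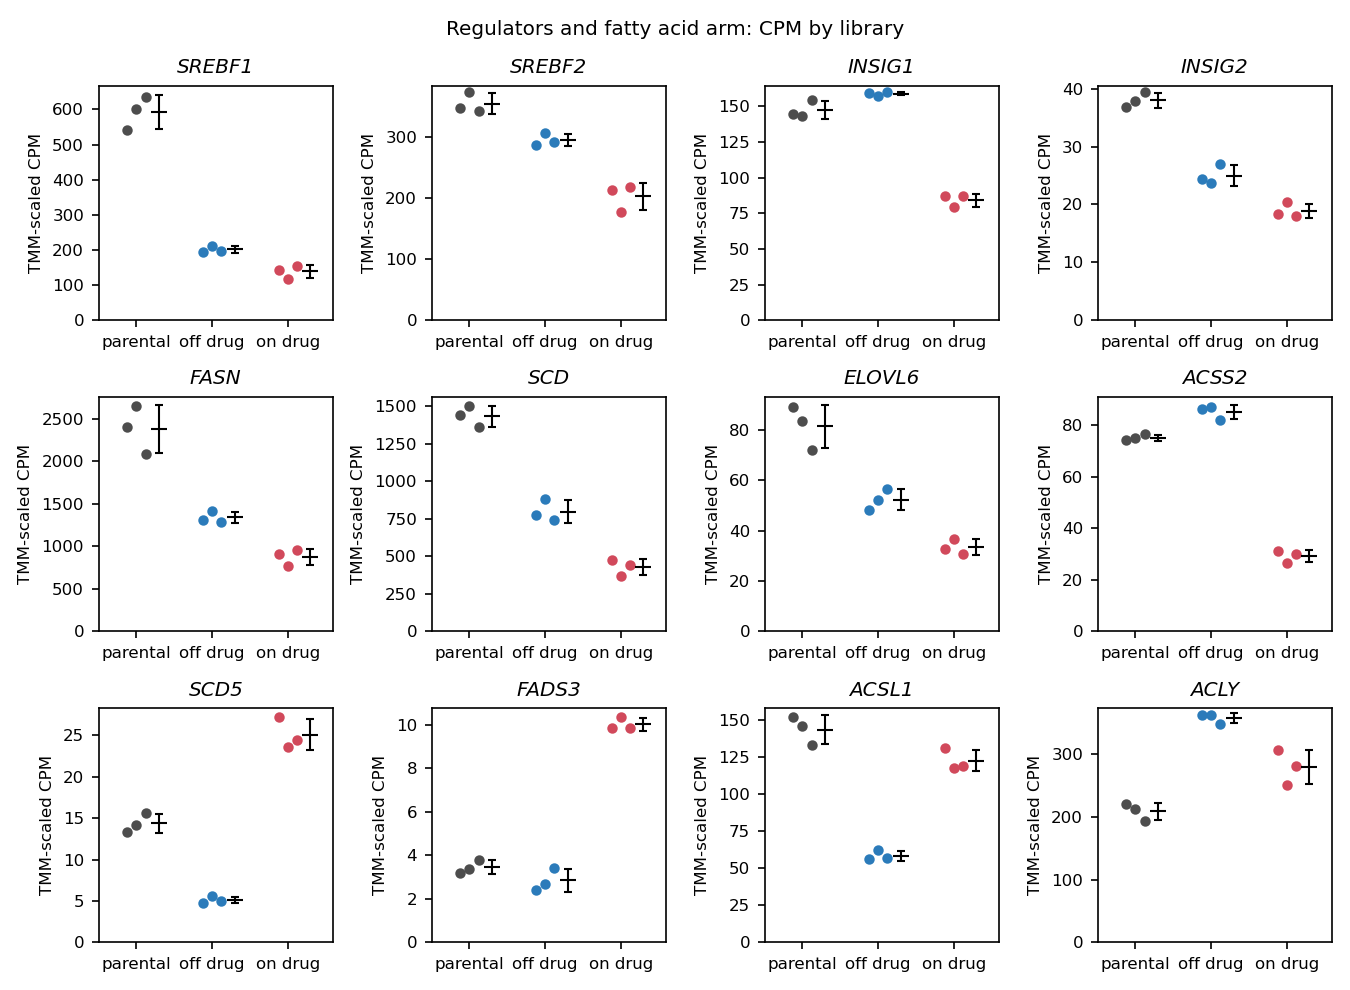
TMM-scaled CPM (y axis, from 0) in each library of the parental, off-drug and on-drug groups for the 4 regulators and 8 genes of the fatty acid arm; points are libraries, and bars beside them give the mean and SD of 3. SREBF1, FASN, SCD and ELOVL6 step down from parental to off drug to on drug, whereas SCD5, FADS3 and ACSL1 rise from off drug to on drug.

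The mevalonate steps turn acetyl-CoA into the isoprenoid units shared by sterols and other products. HMGCS1 (ENSG00000112972.15, chr5:43289395-43313512, minus strand), which makes HMG-CoA, measured 173, 164 and 157 CPM in the parental libraries, 225, 232 and 218 off drug and 178, 155 and 156 on drug. All off-drug libraries were above both other groups, which overlapped. HMGCS1 rose by 0.45 ± 0.079 off drug (edgeR adjusted p = 0.00017) and fell by 0.47 ± 0.079 with drug (adjusted p = 9.4e-05). MVK, mevalonate kinase, measured 51.7, 54.7 and 60.5 CPM in the parental libraries, 26.7, 24.5 and 28.4 off drug and 35.9, 34 and 39 on drug. It was lowest off drug, with no overlap between groups: it fell by 1.07 ± 0.092 (adjusted p = 9.7e-08) and rose by 0.45 ± 0.092 with drug (adjusted p = 0.00048). MMAB, the neighbour whose exons overlap MVK on the other strand, held up to 192% of the counts of MVK.

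PMVK, the next kinase, rose with drug by 0.56 ± 0.11 (edgeR adjusted p = 0.00038), from 21.4, 24.2 and 24.8 CPM off drug to 34.2, 30.8 and 39 on drug. Its fall off drug of 0.36 ± 0.11 (adjusted p = 0.012) was lost without parental replicate 3 (-0.25, adjusted p = 0.062) or off-drug replicate 1 (-0.30, adjusted p = 0.069). FDPS, which makes farnesyl diphosphate, fell with drug by 0.45 ± 0.082 (adjusted p = 0.00019), from 368, 342 and 362 to 272, 247 and 266 CPM, and was not called on log2(TPM + 1) (-0.17). Its rise off drug of 0.24 ± 0.082 was not called without parental replicate 1 or 2 or off-drug replicate 1 or 3 (0.20 to 0.23, adjusted p = 0.062 to 0.1). Against parental, its fall on drug of 0.21 ± 0.082 was lost without parental replicate 3 (-0.13), on-drug replicate 2 (-0.18) or on-drug replicate 3 (-0.23), and was 0.19 on log2(TPM + 1). IDI1, the isomerase of the isoprenoid units, rose off drug by 0.37 ± 0.11 (adjusted p = 0.0074). With drug IDI1 was not called (-0.22 ± 0.10). On-drug replicate 2 stood above its group at 182 CPM, against 131 and 144, and without it the value was -0.37 (adjusted p = 0.0015). MVD, the decarboxylase, was called only for on drug against parental (-0.33 ± 0.096, adjusted p = 0.0069), a call lost with library size alone (-0.10).

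The sterol steps begin with squalene. FDFT1 joins farnesyl units into squalene and measured 476, 456 and 514 CPM in the parental libraries, 540.1, 515 and 561 off drug and 289.9, 294 and 285 on drug. The on-drug libraries were lower than all others. FDFT1 fell by 0.90 ± 0.076 with drug (edgeR adjusted p = 4.3e-08). Off drug FDFT1 was not called (0.16 ± 0.075), but on log2(TPM + 1) it was called higher (0.24, limma adjusted p = 0.0085). SQLE, which oxidises squalene and is a rate-limiting enzyme of the pathway, measured 218, 223 and 229 CPM in the parental libraries, 360.3, 363 and 355 off drug and 217, 178 and 196 on drug. It stood out off drug, with a rise of 0.69 ± 0.080 (adjusted p = 2.7e-06) and a fall of 0.87 ± 0.080 with drug (adjusted p = 1.2e-07) to near the parental level. Against parental, SQLE on drug was not called (-0.18 ± 0.080), and without on-drug replicate 1 it was (-0.27, adjusted p = 0.011).

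LSS (ENSG00000160285.15, chr21:46188141-46228824, minus strand) closes squalene epoxide into lanosterol, the first sterol ring. It measured 46.8, 46.9 and 48.5 CPM in the parental libraries, 34.4, 35.4 and 33.4 off drug and 70.4, 73.7 and 84.3 on drug. Its groups did not overlap and stood in the reverse order of those of FDFT1. LSS fell by 0.46 ± 0.085 off drug (edgeR adjusted p = 0.00024) (-0.27 and not called on log2(TPM + 1)) and rose by 1.15 ± 0.084 with drug (2.21-fold, adjusted p = 8e-09), and was called higher on drug than in parental cells (0.68 ± 0.083, adjusted p = 2.3e-06). Without parental replicate 3, PMVK (0.31, adjusted p = 0.019) and EBP (0.27, adjusted p = 0.0066) were also called higher in that comparison. TM7SF2 (ENSG00000149809.17, chr11:65111845-65116384, plus strand), a sterol C14-reductase, measured 23.3, 24.8 and 31.3 CPM in the parental libraries, 8.89, 9.99 and 9.34 off drug and 25.1, 21.7 and 28.2 on drug. Off drug it was low in all libraries, while the parental and on-drug ranges overlapped. TM7SF2 fell by 1.49 ± 0.13 off drug (adjusted p = 9.3e-08) and rose by 1.41 ± 0.13 with drug (adjusted p = 9.1e-08). VPS51, which overlaps it on the same strand, held up to 1270% of its counts, and reads from the shared exons cannot be told apart by strand.

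CYP51A1, the lanosterol demethylase that precedes that reductase, measured 184, 179 and 188 CPM in the parental libraries, 211, 212 and 205 off drug and 106, 105 and 105 on drug. The on-drug libraries were nearly identical to each other and below the rest, a fall of 0.99 ± 0.070 with drug (edgeR adjusted p = 5.1e-09). Its small rise off drug of 0.19 ± 0.069 was not called without parental replicate 1 or 2 or any of the off-drug replicates (0.17 to 0.21, adjusted p = 0.052 to 0.12). MSMO1 (ENSG00000052802.13, chr4:165327623-165343160, plus strand), which removes the C4 methyl groups together with NSDHL and HSD17B7, measured 646, 596 and 646 CPM in the parental libraries, 483, 479.8 and 519 off drug and 200.2, 245 and 209.8 on drug. It stepped down in each comparison, by 0.35 ± 0.086 off drug (adjusted p = 0.0026), 1.18 ± 0.087 with drug (adjusted p = 8.4e-09) and 1.53 ± 0.087 in all (adjusted p = 3.5e-10). NSDHL and HSD17B7 fell with drug by 0.36 ± 0.093 and 0.43 ± 0.10, and both calls were lost with library size alone (-0.10 and -0.17). HSD17B7 has a near-identical copy, HSD17B7P2, which makes its counts uncertain.

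The last steps diverged. DHCR7, which completes cholesterol, fell with drug by 0.52 ± 0.095 (edgeR adjusted p = 0.00018), from 205, 213 and 204 CPM off drug to 154, 122 and 158 on drug. Its rise off drug of 0.23 ± 0.094 (adjusted p = 0.048) was lost without each of the 6 libraries but parental replicate 3 (0.18 to 0.25, adjusted p = 0.073 to 0.18). SC5D, the C5-desaturase, fell off drug by 0.62 ± 0.086 (adjusted p = 1.6e-05), from 173, 161 and 154 to 101, 104 and 112 CPM, and was not called with drug (0.13 ± 0.085). The latter value was called higher with upper-quartile scaling (0.26, adjusted p = 0.017), library size alone (0.38, adjusted p = 0.00094) and log2(TPM + 1) (0.35, adjusted p = 0.023). EBP, the sterol isomerase, was called with drug (0.26 ± 0.10, adjusted p = 0.036), a call lost without any 1 of the off-drug replicates or on-drug replicate 1 or 3 (0.24 to 0.28, adjusted p = 0.068 to 0.12). On drug against parental EBP was not called (0.11 ± 0.10), but it was without parental replicate 3 (0.27, adjusted p = 0.0066), with library size alone (0.34, adjusted p = 0.0062) and on log2(TPM + 1) (0.46, adjusted p = 0.0027). STARD4, which carries cholesterol between membranes, measured 136, 118 and 108 CPM in the parental libraries, 92.7, 95.8 and 105 off drug and 52.3, 70.4 and 52.6 on drug. It fell with drug by 0.74 ± 0.12 (adjusted p = 3.9e-05). Its fall off drug of 0.30 ± 0.11 was lost without parental replicate 1 or 2 or off-drug replicate 1 or 2 (-0.32 to -0.21, adjusted p = 0.055 to 0.17).

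**Figure D3:**
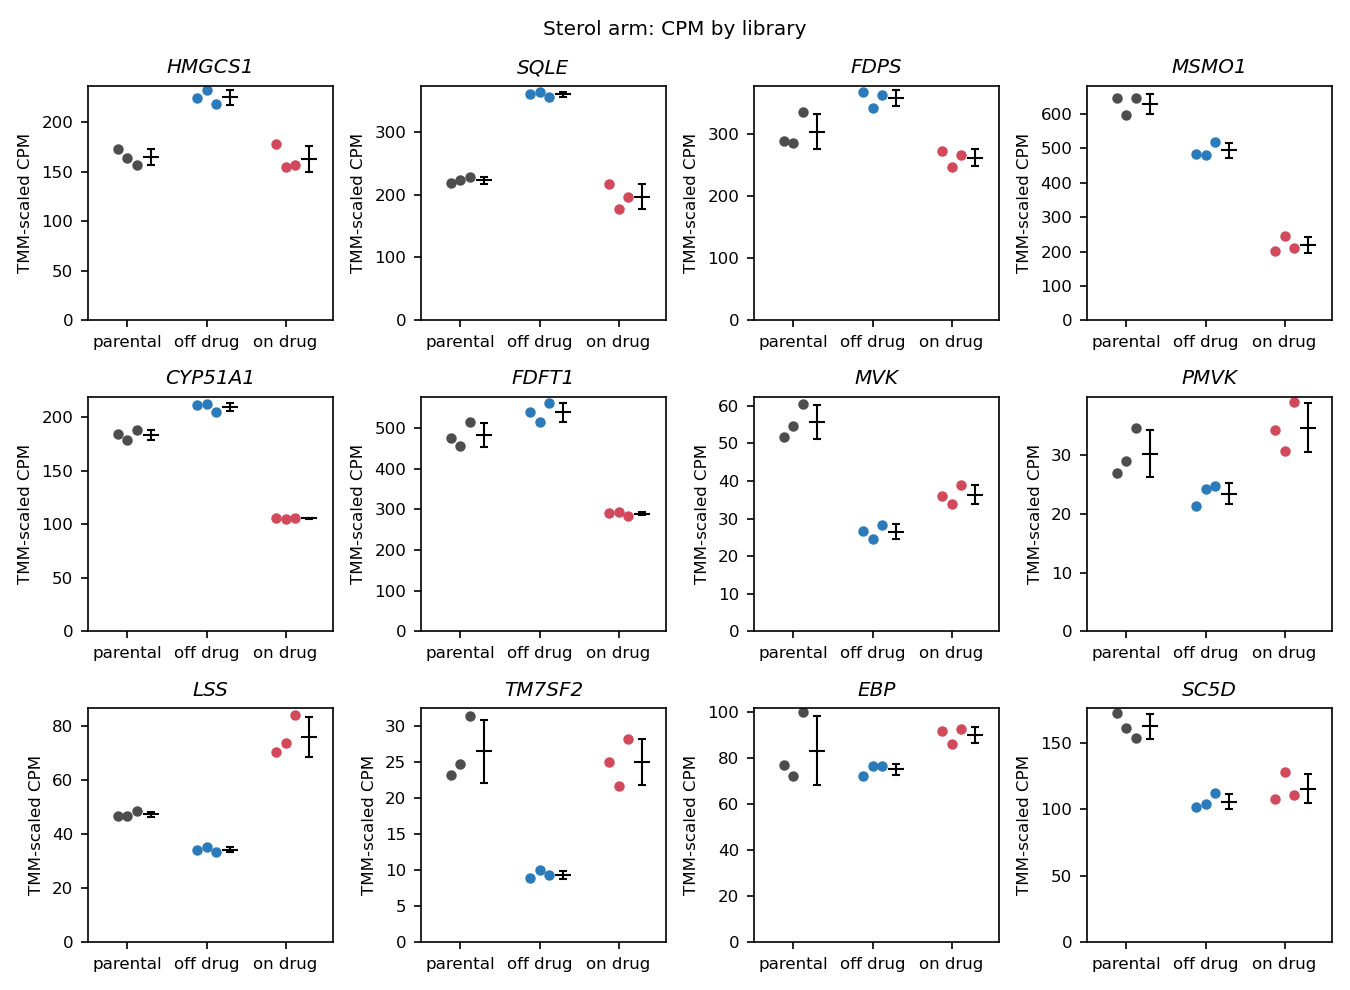
TMM-scaled CPM (y axis, from 0) in each library of the 3 groups for genes of the sterol arm; points are libraries, and bars beside them give the mean and SD of 3. CYP51A1, FDFT1 and MSMO1 are lowest on drug, whereas LSS is highest on drug and TM7SF2 and MVK are lowest off drug.

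Acetyl-CoA for both arms comes from ACLY, which splits citrate, and ACSS2, which activates acetate. ACLY (ENSG00000131473.17, chr17:41866908-41930542, minus strand) measured 221, 213 and 194 CPM in the parental libraries, 362, 363 and 349 off drug and 307, 252 and 281 on drug. No groups overlapped, with the highest level off drug. ACLY rose by 0.77 ± 0.085 off drug (edgeR adjusted p = 1.5e-06) and fell by 0.35 ± 0.085 with drug (adjusted p = 0.0018), and the fall was not called with library size alone (-0.099) or on log2(TPM + 1) (-0.11). ACSS2 (ENSG00000131069.20, chr20:34872146-34927962, plus strand) measured 74, 75 and 76.4 CPM in the parental libraries, 86.1, 87.2 and 81.9 off drug and 31.3, 26.5 and 29.96 on drug. The on-drug libraries were far below all others, and off drug lay just above parental. ACSS2 fell by 1.54 ± 0.082 with drug (2.91-fold, adjusted p = 1.8e-10), the deepest fall of any member in that comparison, and was not called off drug (0.18 ± 0.079).

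FASN (ENSG00000169710.9, chr17:82078333-82098332, minus strand), the synthase that builds palmitate, measured 2407, 2646 and 2081 CPM in the parental libraries, 1316, 1414 and 1291 off drug and 909, 768 and 955 on drug. The groups did not overlap. It fell by 0.83 ± 0.10 off drug (edgeR adjusted p = 4.7e-06) and by 0.61 ± 0.10 with drug (adjusted p = 7.3e-05). The fall with drug was not seen on log2(TPM + 1), where the difference came to 0.041 (adjusted p = 0.83), and the deposited TPM averaged 167 ± 20.1 off drug and 174 ± 40.5 on drug (SD, n = 3). The number of counts per unit of TPM was set to 1 as the parental mean and taken relative to the median gene of each library. For FASN it was 1.03 to 1.09 off drug and 0.73 to 0.89 on drug. The parental libraries ranged from 0.83 to 1.15, overlapping both. The shift of this ratio from off to on drug lay at the 0.97 percentile of the 10706 genes with at least 100 counts. That ratio moves with the transcript lengths assigned to the gene, and what moved it was not tested. The fall off drug was called on both scales.

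ACACA, the carboxylase that makes malonyl-CoA for FASN, measured 109, 119 and 79.2 CPM in the parental libraries, 104, 108 and 89.3 off drug and 75.5, 65.7 and 70.7 on drug. Parental and off-drug values overlapped (-0.026 ± 0.12). ACACA fell with drug by 0.51 ± 0.12 (edgeR adjusted p = 0.0021), a call lost with library size alone (-0.25) and on log2(TPM + 1) (-0.18). ACACB, the mitochondrial form that restrains fatty acid oxidation, was a minor transcript at 1.24, 1.44 and 0.968 CPM in the parental libraries, 1.75, 0.737 and 0.995 off drug and 2.3, 1.75 and 2.15 on drug. It was called higher with drug (0.84 ± 0.30, adjusted p = 0.023) and on drug against parental (0.76 ± 0.30, adjusted p = 0.033). The first call was lost without off-drug replicate 2 or 3 or on-drug replicate 1 or 3 (0.61 to 0.81, adjusted p = 0.061 to 0.1), and the second without parental replicate 1 or 3 or on-drug replicate 1 or 3 (0.63 to 0.78, adjusted p = 0.066 to 0.11) or with DESeq2 (0.77, adjusted p = 0.06).

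The desaturases moved in opposite directions with drug. SCD (ENSG00000099194.6, chr10:100347124-100364834, plus strand), which makes oleate from stearate, measured 1441, 1501 and 1359.9 CPM in the parental libraries, 773, 882 and 739.9 off drug and 479, 370.3 and 440.0 on drug. It stepped down with no overlap between groups, by 0.84 ± 0.099 off drug (edgeR adjusted p = 3e-06), by 0.89 ± 0.099 with drug (adjusted p = 1e-06) and by 1.74 ± 0.10 overall (3.34-fold, adjusted p = 4.3e-10). SCD5 (ENSG00000145284.12, chr4:82629539-82798857, minus strand), a second stearoyl-CoA desaturase, measured 13.3, 14.2 and 15.6 CPM in the parental libraries, 4.8, 5.57 and 5.01 off drug and 27.2, 23.6 and 24.4 on drug. It was lowest off drug and highest on drug, again without overlap. SCD5 fell by 1.49 ± 0.11 off drug (adjusted p = 1.9e-08) and rose by 2.29 ± 0.11 with drug (4.89-fold, adjusted p = 4.1e-11), the largest rise of any member. The 2 genes' CCAAT boxes shown above are a pair of forward matches in SCD and a reverse match in SCD5.

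FADS1, FADS2 and FADS3 lie side by side on chromosome 11 and encode front-end desaturases, of which FADS1 and FADS2 act on polyunsaturated fatty acids. FADS3 (ENSG00000221968.9, chr11:61873519-61892051, minus strand) measured 3.2, 3.37 and 3.8 CPM in the parental libraries, 2.42, 2.7 and 3.43 off drug and 9.86, 10.4 and 9.83 on drug. The on-drug libraries were all far above the rest, a rise of 1.80 ± 0.15 with drug (3.48-fold, edgeR adjusted p = 3e-08). Its neighbours moved the other way. FADS1 fell with drug by 0.28 ± 0.081 (adjusted p = 0.0068) and FADS2 by 0.45 ± 0.10 (adjusted p = 0.0012), and both calls were lost with library size alone (-0.024 and -0.19). Off drug neither gene was called, but on log2(TPM + 1) both were called higher (0.36 and 0.48, limma adjusted p = 0.017 and 0.0056). Exons of FADS1 and FADS2 overlap each other on opposite strands, and FEN1 overlaps FADS2, with FADS1 holding up to 593% and FEN1 up to 577% of the counts of FADS2.

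The elongases lengthen fatty acids by 2 carbons a cycle. ELOVL6, which extends palmitate towards stearate, measured 88.9, 83.5 and 72.2 CPM in the parental libraries, 48.3, 52.2 and 56.5 off drug and 32.7, 36.8 and 30.6 on drug. It stepped down by 0.64 ± 0.098 off drug (edgeR adjusted p = 4.8e-05) and by 0.65 ± 0.10 with drug (adjusted p = 3.3e-05). The step off drug was not called on log2(TPM + 1), at -0.072 (adjusted p = 0.75), where its counts per unit of TPM shifted at the 0.458 percentile of the 10706 genes with at least 100 counts. ELOVL5, an elongase of polyunsaturated chains, measured 197, 196 and 202 CPM in the parental libraries, 269.9, 291 and 266 off drug and 181, 167 and 177 on drug. It was highest off drug, rising by 0.47 ± 0.073 (adjusted p = 5e-05) and falling by 0.65 ± 0.073 with drug (adjusted p = 1.1e-06). Against parental, its fall on drug of 0.18 ± 0.073 was lost without any 1 of the parental replicates or on-drug replicate 2 or 3 (-0.20 to -0.16, adjusted p = 0.066 to 0.075).

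ELOVL1, for saturated very long chains, showed the same order, at 91.3, 93.6 and 111 CPM in parental, 125, 116 and 126 off drug and 77.4, 67.6 and 74.7 on drug. It rose by 0.31 ± 0.089 off drug (edgeR adjusted p = 0.0075) and fell by 0.74 ± 0.090 with drug (adjusted p = 2.7e-06). ELOVL7 rose with drug by 0.30 ± 0.092 (adjusted p = 0.01), which did not pass when off-drug replicate 1 (0.26, adjusted p = 0.056) or on-drug replicate 1 (0.24, adjusted p = 0.053) was left out.

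The acyl-CoA ligases, which activate fatty acids for use, also parted. ACSL1 (ENSG00000151726.15, chr4:184755595-184826818, minus strand) measured 152, 146 and 133 CPM in the parental libraries, 56.2, 62.2 and 56.8 off drug and 131, 118 and 119 on drug. All off-drug libraries were far below the rest, and the on-drug ones just below parental. ACSL1 fell by 1.30 ± 0.084 off drug (edgeR adjusted p = 4e-09) and rose by 1.07 ± 0.083 with drug (adjusted p = 1.6e-08). Against parental, the fall on drug of 0.23 ± 0.081 was lost without parental replicate 1 or 2 or on-drug replicate 2 or 3 (-0.22 to -0.19, adjusted p = 0.051 to 0.097). ACSL3, a ligase of lipid droplets, measured 235, 238 and 245 CPM in the parental libraries, 224, 241 and 223 off drug and 146, 129.9 and 135 on drug. Parental and off-drug ranges overlapped, and all on-drug libraries were lower, a fall of 0.74 ± 0.075 (adjusted p = 3.4e-07).

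**Figure D4:**
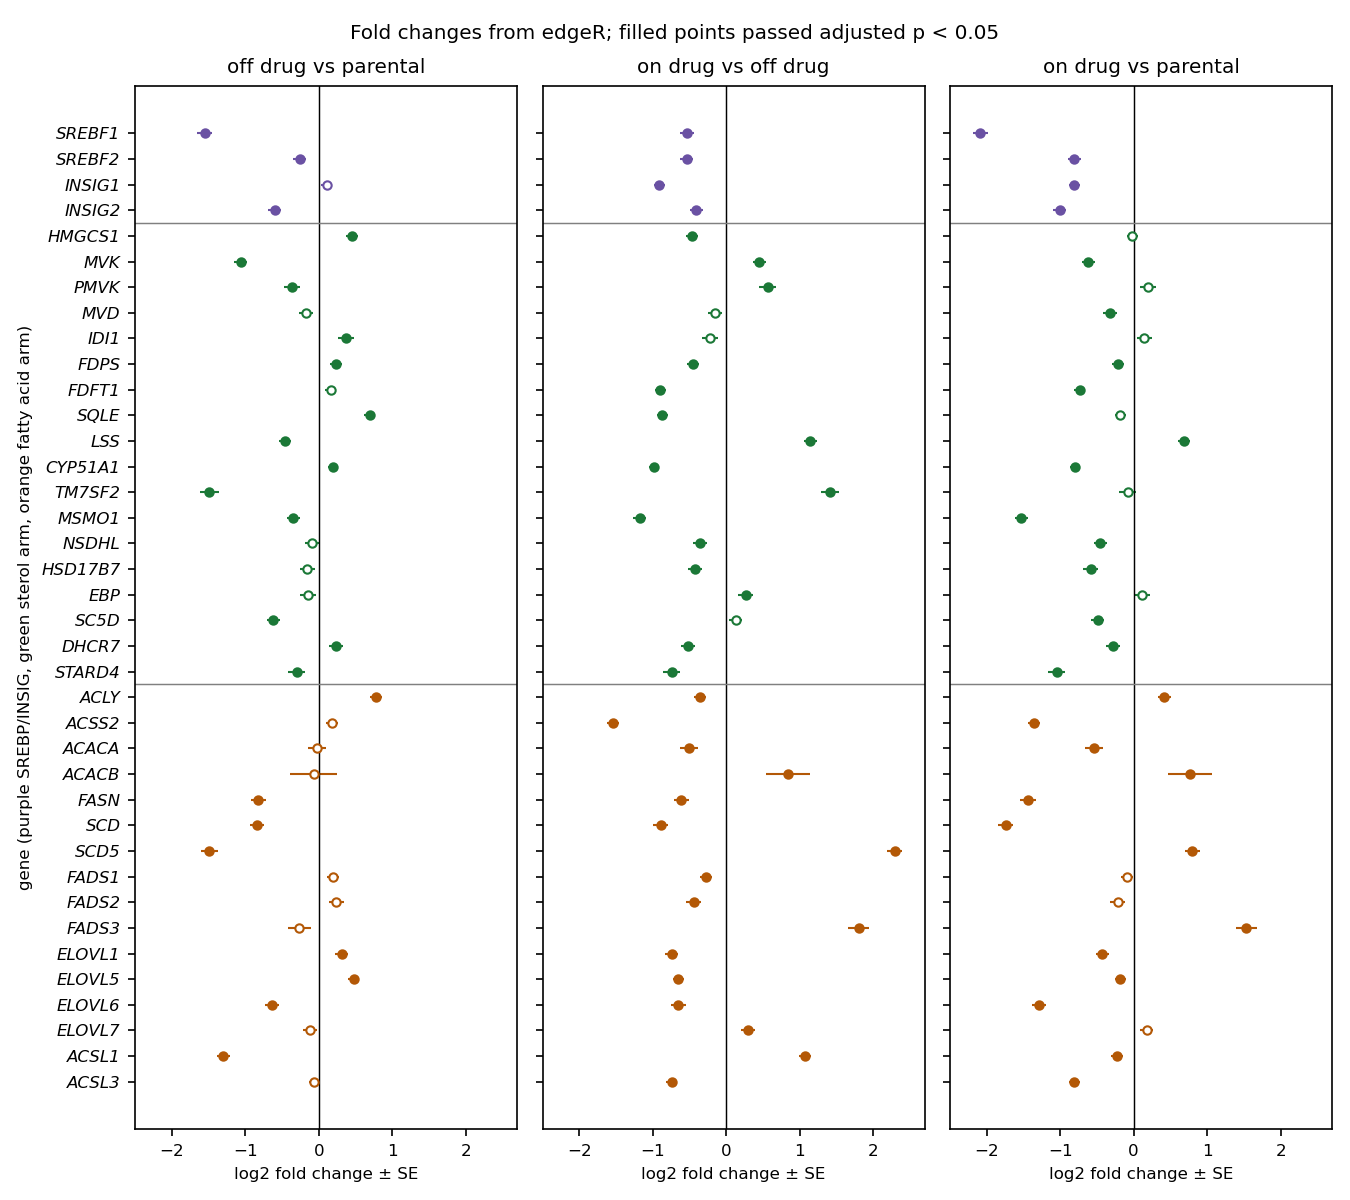
Log2 fold change (x axis, point ± SE from edgeR) of the 38 genes (y axis) in the 3 comparisons, with filled points for an adjusted p under 0.05. On drug against off drug, 25 genes lie left of 0 as filled points and 10 right of it, led by SCD5, FADS3, TM7SF2, LSS and ACSL1.

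Set side by side per length, the arms carried unlike amounts of RNA. The 18 sterol genes summed to 1810 ± 28.1 TPM in parental, 1942 ± 39.0 off drug and 1582 ± 77.3 on drug (SD, n = 3). The 16 fatty acid genes summed to 1093 ± 59.3, 946 ± 78.2 and 794 ± 108 TPM. Summed TMM-scaled CPM weights genes by length and is also scaled between libraries in another way. On it the differences were larger, except for the sterol arm off drug against parental. The median of all genes on log2(TPM + 1) was 0.13, 0.16 and 0.27 in the 3 comparisons, in the order given next. For the sterol arm, the log2 difference was 0.048 on CPM and 0.10 on TPM off drug against parental, -0.57 and -0.30 on against off drug, and -0.52 and -0.19 on drug against parental. For the fatty acid arm it was -0.51 on CPM and -0.21 on TPM, -0.58 and -0.25, and -1.09 and -0.46 in the same order. The ratio of the fatty acid to the sterol sum was 0.580, 0.645 and 0.587 in the parental libraries, 0.485, 0.519 and 0.457 off drug, and 0.536, 0.449 and 0.517 on drug. All parental ratios were above all resistant ones, and the off-drug and on-drug ratios overlapped. FASN and SCD made up 53.4% ± 1.55 of the fatty acid sum in parental, 35.9% ± 1.67 off drug and 35.5% ± 3.09 on drug. With those 2 genes left out, the ratio ran the other way, at 0.281 ± 0.00733 in parental, 0.312 ± 0.0125 off drug and 0.322 ± 0.0187 on drug, again with every parental library on 1 side. The members are not replicates of an arm, so no test was made between the arms.

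**Figure D5:**
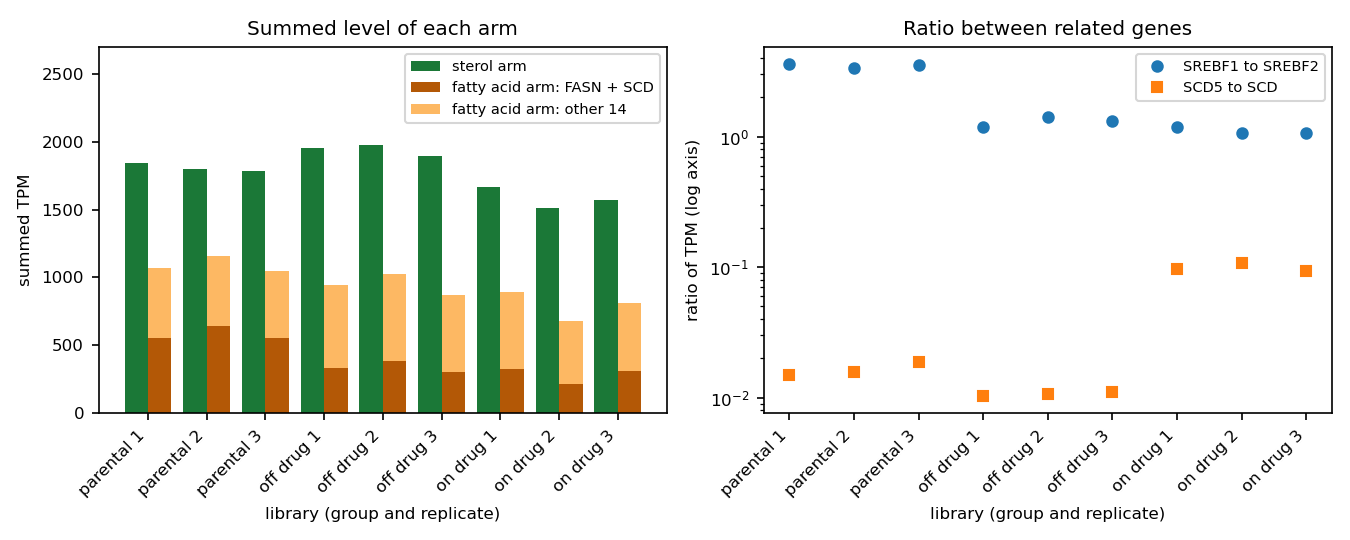
Left, summed TPM of the sterol arm and of the fatty acid arm (y axis), the latter split into FASN plus SCD and the other 14 genes, in each of the 9 libraries (x axis). Right, ratio of the TPM of SREBF1 to SREBF2 and of SCD5 to SCD (log axis) in the same libraries: the first lies above 3 in parental libraries alone, and the second is highest on drug.

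By mean TPM, MSMO1 was the most abundant member in parental cells at 421 ± 27.9, followed by SCD at 294 ± 27 and FASN at 290.3 ± 31, whose order to each other and to FDFT1 and FDPS was within their spread. Off drug, MSMO1 at 352 ± 2.79, FDPS at 339.5 ± 17.7 and FDFT1 at 322 ± 4.71 led, with the range of FDPS overlapping those of both others. On drug FDPS led alone at 302 ± 30.4, and SCD stood at 109 ± 18.7. ACACB was the least abundant in all 3 groups.

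Ratios between related genes within a library do not depend on the scaling between libraries, though TPM also moves with the transcript lengths assigned. The TPM ratio of SREBF1 to SREBF2 was 3.62, 3.33 and 3.54 in parental libraries, 1.19, 1.42 and 1.31 off drug and 1.18, 1.07 and 1.07 on drug. Each group lay apart from the next, narrowly so between off and on drug. The ratio of SCD5 to SCD was 0.0165 ± 0.00198 in parental, 0.0107 ± 0.000453 off drug and 0.0992 ± 0.00725 on drug, with no overlap. INSIG1 to INSIG2 was 3.01 ± 0.0807 in parental and 4.40 ± 0.305 off drug, without overlap, and 4.19 ± 0.432 on drug, overlapping off drug. That overlap holds for TPM: on CPM, INSIG1 fell by 0.91 with drug and INSIG2 by 0.41. From off to on drug, the counts per unit of TPM of INSIG2 shifted at the 97.4 percentile of the 10706 genes. ACACB to ACACA ranged from 0.00464 to 0.0132 in parental, from 0.00876 to 0.0255 off drug and from 0.0178 to 0.128 on drug, with overlap between neighbouring groups. In 9 of the 12 comparisons (4 ratios, 3 pairs of groups) the exact two-sided permutation test gave p = 0.1, the smallest that 3 against 3 libraries allow, and 0.1333 after Benjamini-Hochberg adjustment over the 12. The other three gave 0.5 (INSIG1 to INSIG2, on against off drug) and 0.2 (ACACB to ACACA, off drug against parental and on against off drug). No such ratio could therefore pass 0.05.

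Other genes of the pathway were read from lists chosen by role. Of 9 genes that process or degrade SREBP and its partners, 3 rose and 2 fell off drug, and 3 rose and 4 fell with drug. ERLIN2, which marks sterol-regulated membrane proteins for degradation, measured 65.4, 71.2 and 66.6 CPM in the parental libraries, 39.7, 45.2 and 40.7 off drug and 34.8, 30.2 and 31.1 on drug. It stepped down without overlap, by 0.69 ± 0.086 off drug (edgeR adjusted p = 5e-06) and by 0.39 ± 0.086 with drug (adjusted p = 0.001). Of 15 genes that handle sterols, 5 rose and 3 fell off drug, and 5 rose and 6 fell with drug. ABCA1, the cholesterol exporter and a target of the oxysterol receptors LXR, measured 9.68, 10.3 and 7.71 CPM in the parental libraries, 27.6, 27.3 and 29.7 off drug and 3.82, 3.53 and 3.49 on drug. The off-drug libraries were far above parental and the on-drug ones far below it, a rise of 1.61 ± 0.11 off drug (adjusted p = 7.1e-09) and a fall of 2.96 ± 0.12 with drug (adjusted p = 5.2e-12). NPC1, which exports cholesterol from lysosomes, took the same order, rising by 0.93 ± 0.090 (adjusted p = 3.7e-07) and falling by 1.73 ± 0.092 with drug (adjusted p = 1.9e-10). Its partner NPC2 fell with drug by 1.23 ± 0.084 (adjusted p = 3.8e-09) and was not called off drug (0.097 ± 0.083). TMEM97, a sterol-responsive binder of NPC1, went the other way, with a fall of 0.45 ± 0.083 off drug (adjusted p = 0.00026) and a rise of 1.36 ± 0.082 with drug (adjusted p = 7.6e-10). ACAT2, which condenses acetyl-CoA at the head of the mevalonate pathway, rose in both steps, by 0.46 ± 0.099 (adjusted p = 0.001) and 0.73 ± 0.097 (adjusted p = 7.3e-06). NR1H3, the LXR-alpha receptor, fell with drug by 1.25 ± 0.20 (adjusted p = 5.6e-05). ABCG1, another LXR-driven exporter, was called lower off drug (adjusted p = 0.0055), where ABCA1 rose, and lower on drug than in parental cells (adjusted p = 0.00015). It measured 0.425, 1.16 and 0.856 CPM in the parental libraries, 0.278, 0.123 and 0 off drug and 0.0523, 0.0269 and 0 on drug, so no fold is given against resistant libraries with few or no counts.

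Of 21 further genes of fatty acid and glyceride synthesis, 16 could be tested. Off drug 2 rose and 8 fell, and with drug 4 rose and 5 fell. MID1IP1, which helps acetyl-CoA carboxylase polymerise, fell with drug by 1.83 ± 0.085 (edgeR adjusted p = 3.5e-11), from 212, 213 and 218 to 59.97, 56.8 and 63.4 CPM. MLXIPL, a glucose-sensing transcription factor of lipogenic genes, was low throughout and fell off drug by 1.07 ± 0.21 (adjusted p = 0.0004). DGAT2, which completes triglycerides, rose off drug by 1.45 ± 0.19 (adjusted p = 8.8e-06), from 1.57, 1.88 and 1.97 to 4.72, 5.53 and 4.53 CPM, and was not called with drug (0.098 ± 0.17). ACSL5, at about 1 or 2 CPM, fell with drug by 1.06 ± 0.30 (adjusted p = 0.0065). Over these 3 lists the called share ran from 53.3% to 62.5% off drug and from 56.2% to 77.8% with drug, beside 55% and 62.6% of all genes tested.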

How the data were processed

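RNA was measured in 9 libraries, 3 per group, grouped by the labels. The authors deposited estimated counts per gene, neither whole nor scaled for depth, and TPM values, scaled for transcript length and depth. The tools and build named in the submitters' processing notes, without roles, are Salmon 0.14.1, FastQC 0.12.1, bcl2fastq 2.17 and GRCh38.p13. Annotation release, strand setting and gene-summing tool: not given in the sources used here. Of 60230 gene identifiers, 60089 matched a symbol. The members and the other gene lists were chosen with earlier results of these data known. Every member may be named, and other listed genes where called with an at least 2-fold change in any comparison.

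Estimated counts were rounded and fitted with edgeR 4.0.16 (R 4.3.3), all 9 libraries in 1 fit with no covariate, TMM scaling filterByExpr at a minimum count of 10 (total 15), and 6 residual degrees of freedom in the quasi-likelihood test. Benjamini-Hochberg adjustment ran over 17307 genes. DESeq2 1.42.0, limma 3.58.1 (voom, and log2(TPM + 1 or 0.1) where the mean TPM reached 1), other scalings, filters and left-out libraries were alternatives. The procedure was also run on simulated data in which few genes changed, in random directions. Such data cannot test the scaling between groups, where most genes were called. No pair of libraries agreed within sampling noise (lowest chi-square per degree of freedom 4.86), so none were merged. Gene positions and exon overlaps are from GENCODE 29 on GRCh38, where 16 members overlap another gene. CPM precision rests on 25698500 to 34727826 counts per library, and 3 counts equal at most 0.117 CPM.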

Additional observations from a re-analysis of the deposited data

How the results depend on the processing

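Over 20 alternative settings, 1732 of 1932 values for the 38 genes in the 3 comparisons kept their direction and their side of the threshold. With the direction kept, 115 lost a call and 39 gained one. The other 46 turned sign, with or without a change of call. Replicate numbers did not pair the libraries (correlation of same-numbered deviations -0.034 to 0.14). With a replicate block, the called genes were 9443, 10758 and 11416 for off drug against parental, on against off drug and on drug against parental, and calls were lost for 2 members: DHCR7 off drug (0.23, edgeR adjusted p = 0.057) and ELOVL5 on drug against parental (-0.18, adjusted p = 0.058). The cause of the changes listed here was not tested. At this depth ACACB, near 1 or 2 CPM, was the least certain member.

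Off drug against parental, leaving out 1 library gave 8 to 13 called sterol genes, 3 to 7 of them higher. Upper-quartile scaling gave 3 higher, and log2(TPM + 1) gave 4 lower sterol and 5 higher fatty acid genes (also 5 on log2(TPM + 0.1)). On against off drug, leaving out 1 library gave 3 to 5 higher fatty acid genes, and library size alone, log2(TPM + 1) and log2(TPM + 0.1) each gave 7 lower. On drug against parental, leaving out 1 library gave 1 to 3 higher sterol genes (3 without parental replicate 3), while no low-count filter gave 2 and library size alone and both TPM scales gave 5. Both TPM scales gave 5 lower sterol genes, with the arm's median at 0.051, and library size alone put the fatty acid median at 0.0032, where the medians of all genes were 0.27 on log2(TPM + 1) and 0.24 with library size alone.

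Single genes turned sign as follows. Off drug, NSDHL was 0.067 on log2(TPM + 1) and 0.069 on log2(TPM + 0.1). There, leaving out 1 library gave EBP -0.24 to 0.0069, ACACA -0.18 to 0.092 and ACACB -0.47 to 0.15. On against off drug, MVD was 0.11 and IDI1 0.033 with library size alone. On log2(TPM + 1) MVD was 0.11 and FASN 0.041, and on log2(TPM + 0.1) 0.12 and 0.041. On drug against parental, HMGCS1 was 0.026 with upper-quartile scaling and 0.031 with no low-count filter. Leaving out 1 library gave HMGCS1 -0.095 to 0.018, IDI1 -0.012 to 0.23 and TM7SF2 -0.18 to 0.060. Library size alone gave HMGCS1 0.21, FDPS 0.014, SQLE 0.044, TM7SF2 0.14, FADS1 0.14, FADS2 0.010 and ELOVL5 0.042. On log2(TPM + 1) HMGCS1 was 0.26, FDPS 0.19, SQLE 0.22, TM7SF2 0.39, DHCR7 0.13, FADS1 0.25, FADS2 0.15 and ACSL1 0.12. On log2(TPM + 0.1) they were 0.27, 0.19, 0.22, 0.40, 0.13, 0.26, 0.16 and 0.12. Of the values that turned sign, HMGCS1 with library size alone was called higher (edgeR adjusted p = 0.037). TM7SF2 was called higher on log2(TPM + 1) and log2(TPM + 0.1) (limma adjusted p = 0.022 and 0.025).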

Other observations

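Genes linked to the burning of fatty acids, the reverse of the synthesis arm, were read as a list of 10 that was not part of the comparisons above. It holds enzymes and the PPAR receptors, so its counts are not those of the enzymes alone. Off drug 2 rose (PPAR receptors) and 5 fell (enzymes). With drug 2 rose (enzymes) and 5 fell (of both kinds), and from parental to on drug 2 rose and 6 fell (each of both kinds). These are called shares of 70%, 70% and 80%, beside 55%, 62.6% and 66.2% of all genes tested. CPT1A, which commits fatty acids to mitochondria, measured 61.4, 61.1 and 62.8 CPM in the parental libraries, 21.9, 26.6 and 21.9 off drug and 21, 15.6 and 18.3 on drug. It fell by 1.40 ± 0.11 on the log2 scale off drug (edgeR adjusted p = 3e-08) and by 0.36 ± 0.11 with drug (adjusted p = 0.0097). Among the PPAR receptors, which sense fatty acids, PPARD rose off drug by 1.80 ± 0.086 (adjusted p = 1.8e-10), from 45.7, 46 and 39.6 to 155, 146 and 157 CPM, and fell with drug by 1.03 ± 0.083 (adjusted p = 2.5e-08). PPARG rose by 0.53 ± 0.082 and fell by 1.39 ± 0.083 in the same comparisons.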
